A study of Populus trichocarpa with 378 samples.

Results

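Knockdown of the regulator MYB156 was carried by the construct a46, which was present in 17 of the 378 RNA-seq libraries of a Populus trichocarpa series on wood formation. The 17 libraries were those whose label names a46, and they came from 6 transgenic lines. Lines a46-1, a46-3, a46-4, a46-5 and a46-8 had 3 pools each, and line a46-10 had 2 pools. Each library was made from total RNA of stem-differentiating xylem, the young wood scraped from the debarked stem, and each pool combined clonally propagated trees of 1 line. The trees had grown in the greenhouse for 6 months in planting batch 4 (NSF4), with 3 wildtype pools of the same batch. The batch also held 9 transgenic lines of 3 other constructs in 27 pools, labelled as knockdowns of C4H2 (a9), C4H1 (a10) and CCR2 (i26). A relative of the target, MYB221, was knocked down by the construct a47 in 3 lines of batch 2, which had its own 3 wildtype pools. All transgenes were driven by a xylem-specific promoter of a 4-coumarate:CoA ligase gene, so that a lowered target was sought in the tissue that was sampled. The labels give no means of silencing for a46.

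MYB156 belongs to the R2R3-MYB transcription factors, in the subgroup of Arabidopsis MYB4, which represses genes of phenylpropanoid metabolism. In Populus tomentosa, the MYB156 protein is known as a repressor of phenylpropanoid genes, and MYB221 is its close paralog. Phenylpropanoid metabolism supplies the monolignols, which differentiating xylem polymerizes to lignin in the secondary wall.

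The files pair no gene name with the identifiers (Potri numbers), and MYB156 was not assigned to one. The level of the target was therefore not measured, and whether the labelled knockdown lowered it in any of the 17 libraries was not checked. For the same reason xylem markers and monolignol genes were not read by name, and genes are given by identifier, without a role. The digits before the letter G of an identifier are its chromosome, and the digits after it rise along the chromosome, which is how neighbours were found.

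The a46 libraries held 13.4 to 47.9 M counts, with a median of 21.8 M, and the 3 wildtype pools held 93.5, 25.7 and 14.7 M. Added up by line, a46 counts ranged from 39.97 to 128 M. The deepest wildtype pool held more counts than 5 of the 6 line sums, and the shallowest held fewer than any of them. Levels are given as counts per 1000000 counts (CPM), scaled with TMM factors, which correct the library totals for the composition of each library. Since the tissue was sampled in bulk, fewer cells of a type and less RNA per cell cannot be told apart.

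Pools of the same line were not close copies of each other. Over the 26622 genes whose level averaged 1 CPM or more, the correlation of log2 CPM had a median of 0.946 over the 16 pairs of pools within a line, 0.917 over 120 pairs from different a46 lines and 0.953 over the 3 wildtype pairs. These correlations are across genes, which are not independent replicates, and the 3 ranges overlapped. Of the variance between the 17 pools, 23.4% lay between lines and 76.6% between pools of 1 line. Without line a46-3 the share between lines was 28.9%, and without line a46-1 it was 19.7%. Pool 2 of line a46-4 stood apart from the other pools of its line on part of chromosome 7, where it resembled line a46-1 at a smaller size. The tests against wildtype, between lines and of single lines were also run without it. The comparisons with the other constructs and with a47, the correlations and the variance shares were not run without this pool alone.

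A run of 9 neighbouring identifiers on chromosome 5, Potri.005G132300 to Potri.005G133100, set 5 pools apart. The run held 18.3% of all counts in pool 3 of a46-1, 17.8% in pool 3 of a46-10, 19.2% in pool 1 of a46-3, 20.5% in pool 1 of a46-4 and 27.1% in pool 1 of a46-8. In the other 12 a46 pools it held 2.54 to 12.1%, and in wildtype 1.98 to 6.45%. Each of these 5 pools came from a different line, so the share moved with the pool and not with the line. In line a46-8 it was 10.7 times higher in 1 pool than in another. The 9 identifiers moved together, with a correlation of at least 0.959 for each pair across the 20 libraries. The other constructs of the batch spanned a wider range, 1.08 to 63.7%. Identifiers with near-identical sequence could share reads, since the sources used here do not state how reads with several matches were counted, and the levels of single members are uncertain.

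**Figure D1:**
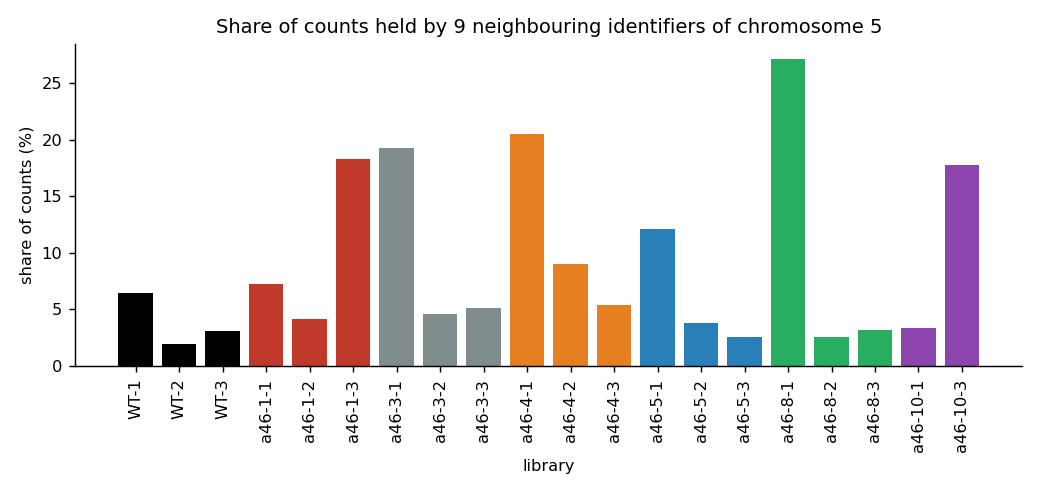
Share of counts held by 9 neighbouring identifiers of chromosome 5 (y axis, percent) in each wildtype and a46 library (x axis), with bars coloured by line and 1 bar per library. The 5 highest bars, from 17.8 to 27.1%, belong to 5 different lines.

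The first comparison asked which transcripts differed in xylem that carries the MYB156 knockdown construct. Counts were added up by line, and the 6 lines were set against the 3 wildtype pools. No transcript passed the threshold: edgeR's quasi-likelihood test gave 0 of 31737 genes with an adjusted p under 0.05 (0%), and the smallest adjusted p was 0.245. At an unadjusted p under 0.05 it gave 3501 genes (11%). DESeq2 gave 781 genes on the same counts (2.46%), 503 higher and 278 lower in a46, so the count of calls rests on the tool. In 918 genes (2.89%) all 6 lines lay above all 3 wildtype pools, and in 1017 genes (3.2%) all 6 lay below. Pool by pool, 59 genes (0.186%) had all 17 a46 pools above wildtype, and 56 (0.176%) had all 17 below.

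The genes named for this comparison came from those with all 6 lines on 1 side of all 3 wildtype pools, so their separation was set by that choice. Among them Potri.002G032000 had the smallest p. It had 3.81 CPM in a46-1, 3.4 in a46-3, 2.98 in a46-4, 3.28 in a46-5, 3.96 in a46-8 and 3.13 in a46-10, against 1.45, 1.31 and 1.48 CPM in the wildtype pools. The means were 3.43 ± 0.384 (SD, n = 6 lines) and 1.41 ± 0.0883 CPM (SD, n = 3 pools). The log2 difference was 1.28 (SE 0.16), with an adjusted p of 0.245 by edgeR and 3.72e-09 by DESeq2. The 9 lines of the other constructs held 2.78 ± 0.741 CPM of it (SD, n = 9 lines), from 1.37 to 3.54, so the ranges of the a46 lines and of those lines overlapped.

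Potri.002G107200 showed how far pools of 1 line could differ. It had 0.37, 0.43 and 0.41 CPM in the wildtype pools, and its 6 line values ran from 1.98 CPM in a46-4 to 7.32 CPM in a46-10, a log2 difference of 3.30 (SE 0.43, adjusted p = 0.245 by edgeR). Yet the pools of a46-8 held 11.2, 0.44 and 0.68 CPM, and those of a46-10 held 14.3 and 2.89. The lowest a46 pool thus stood next to the highest wildtype pool, and line a9-2 of the other constructs reached 12.6 CPM.

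Among genes with lower values in a46, Potri.008G108200 had 24.6 to 28.6 CPM in the 6 lines, a mean of 26.8 ± 1.51 (SD, n = 6), against 49.4, 36.5 and 46.4 CPM in wildtype. The log2 difference was -0.71 (SE 0.10, adjusted p = 0.309 by edgeR). The other constructs also lay low, at 29.1 ± 6.29 CPM (SD, n = 9 lines), so the value of the a46 lines was shared by much of the batch.

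Potri.014G065600, from the same choice of genes without overlap, had 2.27, 1.83 and 1.36 CPM in wildtype and 0.232 to 0.602 CPM in the a46 lines. Its log2 difference was -2.05 (SE 0.30, adjusted p = 0.318 by edgeR). The gene had 0 counts in 5 of the 17 a46 pools, and the other constructs ranged from 0.302 to 2.38 CPM.

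**Figure D2:**
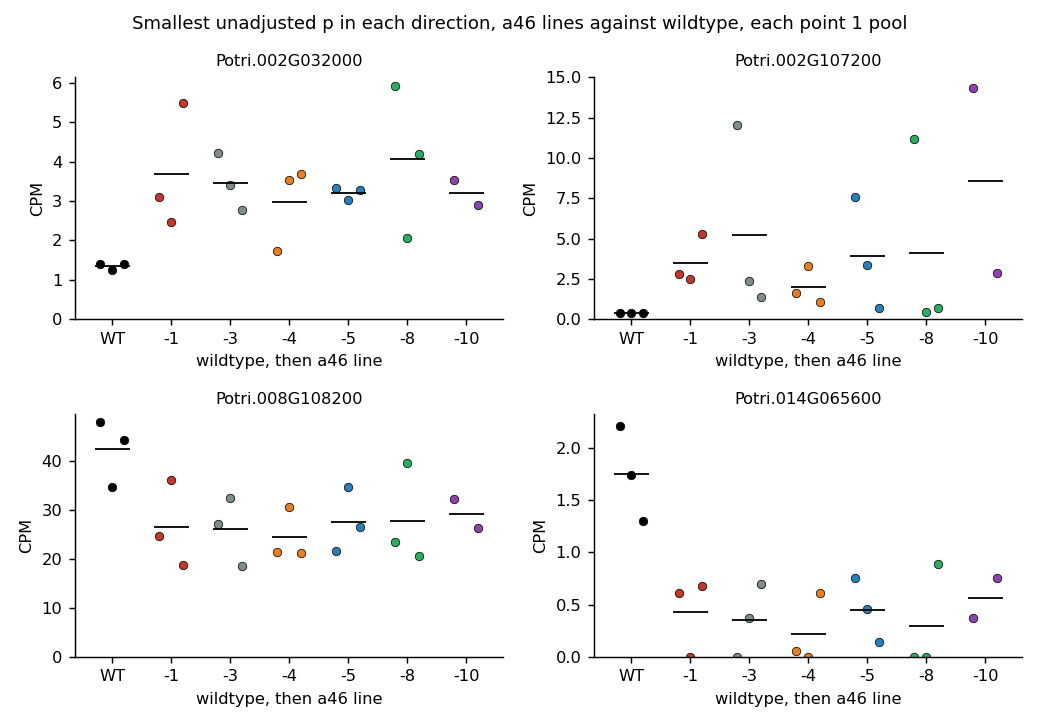
CPM (y axis) of the 2 genes with the smallest unadjusted p in each direction among those without overlap between line sums and wildtype, by wildtype and a46 line (x axis), with 1 point per pool and a bar at the mean of the pools. The line values stand apart from wildtype by that choice. Single pools reach wildtype for Potri.008G108200, at up to 39.6 CPM in a46-8. A pool of a46-8 comes near it at 0.44 CPM of Potri.002G107200. None of the 4 passed the threshold by edgeR.

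Set against the 9 other transgenic lines of the batch, which had passed through transformation and the same greenhouse, a46 again gave 0 genes past the threshold by edgeR, of 32686 tested (0%), with 3061 at an unadjusted p under 0.05 (9.36%). DESeq2 gave 368 genes (1.13%), 239 higher and 129 lower. All 6 a46 lines lay above all 9 other lines in 13 genes (0.0398%) and below them in 17 (0.052%). The smallest adjusted p by edgeR was 0.159.

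Potri.003G215800 had 41.6 CPM in a46-1, 18.8 in a46-3, 33.1 in a46-4, 22.7 in a46-5, 16.2 in a46-8 and 33.03 in a46-10. The 9 other lines held 7.81 to 17.8 CPM and wildtype 8.58, 7.81 and 14.1. By line sums, a46-1, a46-3, a46-4, a46-5 and a46-10 lay above every other unit of the batch, and a46-8 lay within the range of the other lines. Single pools overlapped, at 14.2 to 59.3 CPM in a46 and 4.56 to 25.95 CPM in the other constructs. The log2 difference from the other lines was 1.36 (SE 0.20, adjusted p = 0.159 by edgeR and 1.51e-05 by DESeq2). Potri.004G067500 was a low gene with 1.9 to 2.61 CPM in the a46 lines and 0.809 to 1.99 CPM in the others, which by line sums overlapped in line i26-9 alone. Its log2 difference was 1.03 (SE 0.14, adjusted p = 0.159 by edgeR).

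Potri.001G403300 and Potri.001G078200 were the genes named with lower values in a46. Potri.001G403300 had 19.7 to 23.98 CPM in the a46 lines and 25.5 to 32.5 CPM in the 9 others, without overlap by line sums, for a log2 difference of -0.37 (SE 0.07, adjusted p = 0.196 by edgeR). Single pools overlapped, at 14.95 to 27.3 CPM in a46 and 17.8 to 33.8 CPM in the other constructs. Its wildtype pools held 22.9, 34.7 and 26.9 CPM, and the lowest lay within the range of the a46 lines. Potri.001G078200 had 2.77 to 4.05 CPM in a46 and 3.44 to 5.82 CPM in the others, a log2 difference of -0.56 (SE 0.10, adjusted p = 0.196 by edgeR), but wildtype spread from 0.5 to 3.88 CPM around the a46 values.

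By edgeR more genes were called between the 6 lines than between a46 and wildtype, but these tests used different units. The test between lines took pools as samples, and that against wildtype took line sums. A test for any difference between the lines, with their 17 pools as samples, gave 454 of 31114 genes by edgeR (1.46%), with 6641 at an unadjusted p under 0.05 (21.3%), and 5063 by DESeq2 (16.3%). The count past the threshold fell most without line a46-1, when 3 genes remained, all of them among the 454. At an unadjusted p under 0.05 by edgeR, 5176 genes remained without a46-1, and fewer, 4659, without a46-5. Without line a46-5 the count past the threshold was 43, without a46-8 it was 294, and without a46-3 it was 1013. Without the 5 pools in which the run on chromosome 5 held over 15% of counts it was 1405, of which 261 were among the 454.

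Of the 454 genes, 182 lay on chromosome 7, from Potri.007G062700 onwards. That is 30.3% of the 601 genes tested there, against 1.27% of the 472 tested on the rest of chromosome 7 and 0.885% of the 30041 tested elsewhere. Line a46-1 was the lowest of the 6 lines in 181 of the 182. The stretch was noticed in these data and bounded from them, so these shares are a description and not a test.

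In line a46-1, nearly every expressed gene of that stretch was lower than in wildtype, with a median level of 50.8% of the wildtype mean. The stretch held 847 of the 1473 entries of chromosome 7, from Potri.007G062700 to the last one, Potri.007G147300, and 435 of them had a mean of at least 3 CPM. The median log2 ratio of the line to the wildtype mean was -0.98 over these 435 genes, with quartiles of -1.19 and -0.77. Over the 381 expressed genes on the earlier side of chromosome 7 it was -0.05, and over 20856 genes of the other chromosomes -0.05. Of the 435 genes, 426 (97.9%) were lower in a46-1 than the wildtype mean, against 57.1% on the other chromosomes. The ratio lay between -1.5 and -0.5 for 351 genes (80.7%) and for 10.9% of genes elsewhere. Genes in the stretch took 0.7% of the counts of a46-1, 1.37 to 1.51% of those of the wildtype pools and 1.24 to 1.38% of those of the other 5 lines.

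The change of level was abrupt along the gene order. A step was fitted to the deviation of each gene in a46-1 from the median of the other units of the batch. The last 10 expressed genes before it, up to Potri.007G061700, had log2 deviations from -0.28 to 0.13, and the first 10 after it had deviations from -1.18 to -0.54, without overlap. The lowering then held along the whole stretch: over 4 equal parts of the gene order, the median log2 ratios were -0.97, -0.95, -0.95 and -1.06. It was also alike for weak and strong genes, with medians of -0.92, -0.95 and -1.06 in 3 equal groups from the lowest to the highest level. The medians of the other chromosomes of the line lay between -0.04 and 0.00.

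**Figure D3:**
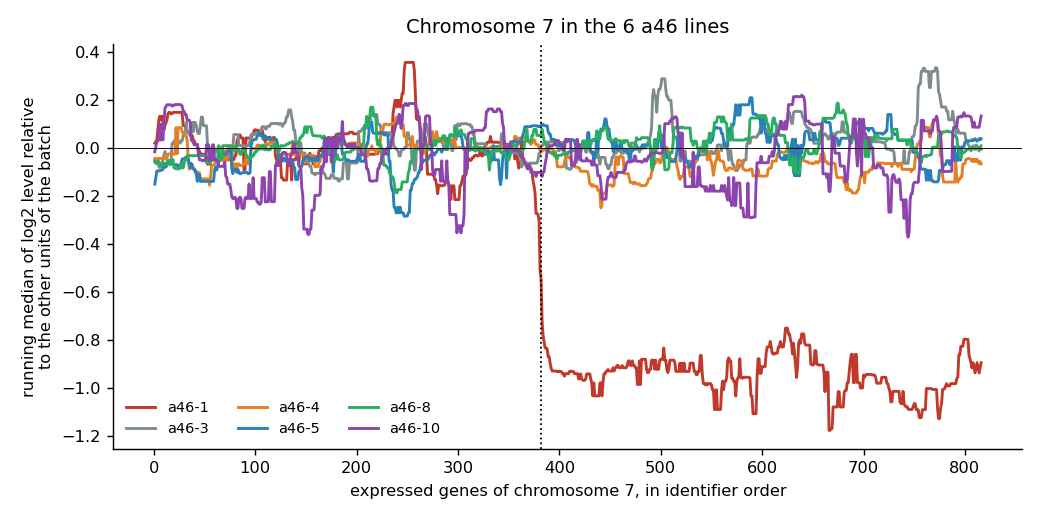
Running median over 25 expressed genes of the log2 level relative to the median of the other units of the batch (y axis), along chromosome 7 in identifier order (x axis), with 1 curve for each a46 line and a dotted line at the fitted step. The curve of a46-1 falls at the step and has a median of -0.94 log2 from there to the end of the chromosome, while the curves of the other lines swing between -0.37 and 0.34 over the whole chromosome, with medians after the step from -0.07 to 0.03.

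All 3 pools of a46-1 showed the lowering, with median log2 ratios over the stretch of -0.94, -0.96 and -1.01, against -0.05 to -0.03 on the rest of the chromosome. The line value ranged from -0.99 to -0.95 when single pools of the line or of wildtype were left out. The other 5 lines had medians from -0.11 to 0.00. A scan of the whole series for at least 100 consecutive genes with a running median beyond 0.5 log2 found such a stretch in 1 of the 15 lines of the batch, a46-1, in 1 line of the other batches, and in 0 of 18 wildtype pools, among 154 units. This count is by the stated limits and covers line sums. The line of the other batches entered the scan with 1 library, and a46-1 with 3. The copy number of the stretch in DNA was not analysed here.

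One pool labelled as another line showed the same step at a smaller size. In pool 2 of line a46-4, the median after the step minus that before it was -0.34 log2, against -0.91, -0.92 and -1.001 in the pools of a46-1. The other 43 libraries of the batch lay between -0.07 and 0.13, among them the other 2 pools of a46-4, at 0.03 and 0.04. Fitted on its own, this pool gave a step at Potri.007G062700, the same gene as in each of the 3 pools of a46-1, and no other of the 47 libraries did. In it 83.6% of the genes after the step were lower than the median of the other libraries, and 47.9% of those before it. The gene that marked line a46-4, Potri.005G252300, was high in this pool, at 14.6 CPM. Without this pool a46 against wildtype still gave 0 genes by edgeR and line a46-1 gave 333 in place of 341, while the test between lines gave 272 genes in place of 454, of which 258 were among the 454 and 170 in the stretch.

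**Figure D4:**
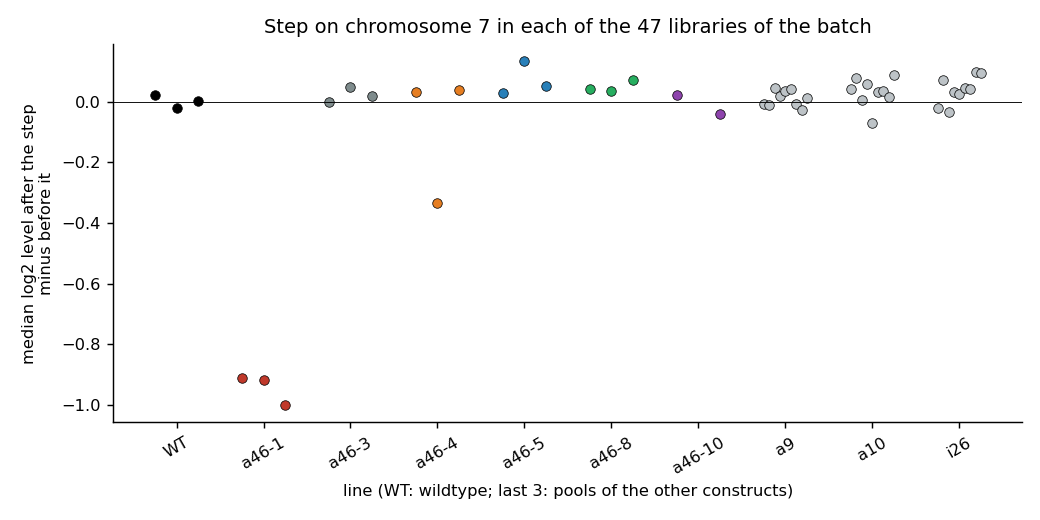
Median log2 level after the step on chromosome 7 minus the median before it (y axis) in each of the 47 libraries of the batch, by line or construct (x axis), with 1 point per library. The 3 pools of a46-1 sit between -1.001 and -0.91, pool 2 of a46-4 sits at -0.34, and the other 43 libraries lie between -0.07 and 0.13.

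Some genes in the stretch were lowered much further. Potri.007G064500 had 0.21, 0.23 and 0.19 CPM in the pools of a46-1, from 8, 4 and 5 counts, against 8.83, 7.3 and 9.98 CPM in wildtype. The other 14 a46 pools held 4.98 to 10.1 CPM, so the line stood apart from every pool. Line a46-1 differed from wildtype by a log2 of -5.37 (SE 0.28, adjusted p = 1.28e-07 by edgeR). Potri.007G125200 fell likewise in a46-1, with 0.56, 0.79 and 0.42 CPM against 7.85, 7.57 and 7.09 CPM in wildtype, a log2 difference of -3.70 (SE 0.28, adjusted p = 1.41e-05 by edgeR). In pool 2 of a46-4 these genes had 5.55 and 3.98 CPM, each the lowest value among the 3 pools of that line. In all, 6 of the 435 genes had a ratio under -3. Potri.007G102000 was nearer to the rest of the stretch, at 9.29, 9.18 and 9.29 CPM in a46-1 and 15.9 to 25.5 CPM in the other a46 pools (adjusted p = 0.000116 between lines by edgeR), though pools of the other constructs went down to 6.3 CPM.

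Each line was then tested against wildtype by itself, with 31297 genes in 1 fit. By edgeR, line a46-1 gave 341 genes (1.09%), 51 higher (0.163%) and 290 lower (0.927%), and 217 without wildtype pool 1. Of the 290 lower genes 249 lay in the stretch of chromosome 7, where no gene was higher, and 92 of the 341 lay outside it, 51 higher and 41 lower. Thus the stretch held 73.0% of the calls of this line and all but 41 of the lowered genes. The calls were 41.2% of the 605 genes tested in the stretch, 1.06% of the 472 on the rest of chromosome 7 and 0.288% of the 30220 elsewhere. The stretch was bounded from the low values of this line, so these shares are a description and not a test.

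Outside the stretch, the gene with the smallest p that rose in a46-1 was Potri.016G049600, with 14.3, 25.9 and 11.4 CPM against 0.55, 0.10 and 0.24 CPM in wildtype, a log2 difference of 5.70 (SE 0.89, adjusted p = 0.00288 by edgeR). The gene was not low in all other lines, since the pools of a46-4 held 10.5, 7.97 and 2.29 CPM and a pool of the other constructs held 93.2. Potri.016G144200 rose by a log2 of 0.54 (SE 0.09, adjusted p = 0.00334 by edgeR), from 15.4, 13.7 and 13.6 CPM in wildtype to 21.8, 19.8 and 21.2 CPM. The 3 pools lay above all other a46 pools, which reached 18.6 CPM, but within the range of the other constructs, whose pools reached 23.5 CPM.

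The other lines gave few calls or none. By edgeR, line a46-3 had 4 genes (0.0128%), line a46-4 had 1 (0.0032%), line a46-8 had 1 (0.0032%), and lines a46-5 and a46-10 had 0 (0%), with 3118 and 6324 genes at an unadjusted p under 0.05. DESeq2 was not run on single lines. Line a46-10 rested on 2 pools, and it gave 26 genes without wildtype pool 3. Without that pool a46-5 gave 3 genes and a46-4 gave 4. Without wildtype pool 2, a46-4 gave 3 and a46-10 gave 1. Line a46-8 gave 0 without either of wildtype pools 2 and 3. Whether the lines differed in their response to the construct was not tested by these counts.

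The clearest mark of a single line was Potri.016G098800 in a46-3. It had 9.92, 8.05 and 9.1 CPM in the 3 pools of that line, from 280, 393 and 468 counts, while the other 14 a46 pools held 0.13 to 0.50 CPM and wildtype 0.25, 0.13 and 0.24. No pool of another a46 line came near, and the log2 difference from wildtype was 5.41 (SE 0.42, adjusted p = 3.31e-05 by edgeR). One line of another construct, i26-4, had a like level of 10.5 CPM, and the other 8 lines had at most 0.661 CPM. Of the 3 genes that fell in a46-3 (0.00959%), those with the smallest p were Potri.008G141300, with 7.73, 9.16 and 8.2 CPM against 14.8, 14.4 and 13.8 CPM (log2 -0.79, SE 0.09, adjusted p = 0.00608 by edgeR), and Potri.015G027200. The latter had 9.64, 10.5 and 10.7 CPM against a wide wildtype spread of 62.8, 29.9 and 39.3 CPM (log2 -2.10, SE 0.26, adjusted p = 0.00724 by edgeR). It was as low in a46-10, with 12.7 and 6.17 CPM, and by line sums the 9 lines of the other constructs held 10.2 to 23.2 CPM, so the low level was not a mark of a46-3. Potri.008G141300 likewise had 7.3 to 14.8 CPM in those 9 lines, a range that holds the a46-3 values.

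In line a46-4 the only gene called was Potri.005G252300, with 16.2, 14.6 and 28.9 CPM against 1.57, 1.28 and 1.95 CPM in wildtype. All 14 pools of the other a46 lines lay between 1.36 and 2.98 CPM, far below it. The log2 difference was 3.64 (SE 0.29, adjusted p = 4.91e-05 by edgeR). Pool 2, which showed the partial step on chromosome 7, had the lowest of the 3 values, and without it the log2 difference was 3.81. The gene called in line a46-8, Potri.007G012800, lies before the step on chromosome 7. It had 0.21, 0.16 and 0.30 CPM, from 3, 3 and 7 counts, against 1.77, 2.34 and 2.01 CPM in wildtype. Its log2 difference was -3.14 (SE 0.37, adjusted p = 0.0118 by edgeR). The adjusted p by edgeR was 0.0771 without wildtype pool 2 and 0.0503 without wildtype pool 3. The other a46 pools lay between these groups, at 0.588 to 1.503 CPM. Among the other constructs, line a10-10 had 0.429 CPM and single pools went down to 0.048 CPM, below the a46-8 pools.

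**Figure D5:**
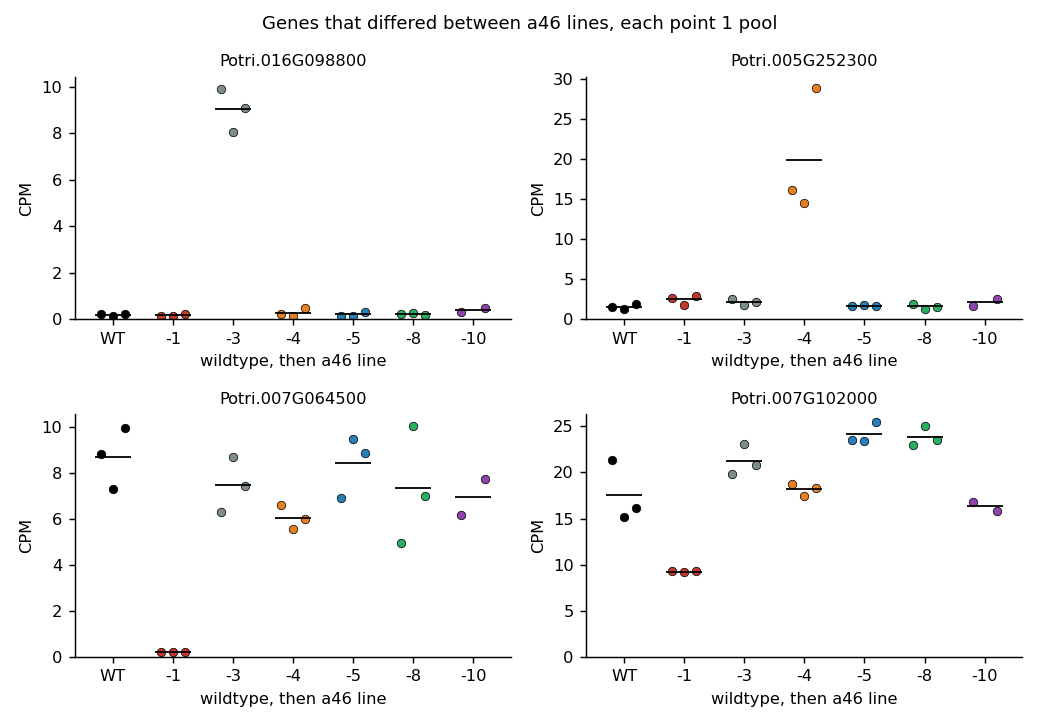
CPM (y axis) of 4 genes from the test between lines, the 2 with the smallest p whose farthest line lay above the others and the 2 whose farthest line lay below, by wildtype and a46 line (x axis), with 1 point per pool and a bar at the mean of the pools. Line a46-3 stands alone at 8.05 to 9.92 CPM of Potri.016G098800, line a46-4 at 14.6 to 28.9 CPM of Potri.005G252300, and line a46-1 at 0.19 to 0.23 CPM of Potri.007G064500.

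Without line a46-1, the genes that still passed the threshold between lines were these markers of a46-3 and a46-4, with an adjusted p of 0.000299 each, and Potri.006G219100 (adjusted p = 0.0216, edgeR). Potri.006G219100 was highest in a46-10, at 42.4 and 33.7 CPM, and lowest in a46-8, at 6.97, 10.2 and 7.26 CPM. Its wildtype pools held 10.0, 18.1 and 19.0 CPM, so these lines lay on either side of most of the wildtype values. Pools of the other constructs ran from 4.43 to 56.7 CPM, beyond the a46 pools on either side. Among the 272 called genes outside the stretch, the line farthest from the median of the 6 was a46-10 for 78 genes, a46-5 for 62, a46-1 for 57, a46-3 for 36, a46-8 for 28 and a46-4 for 11.

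The last comparison set the MYB156 knockdown beside that of its relative MYB221, each relative to the wildtype of its own batch, in 1 fit. By edgeR the difference between the knockdowns passed the threshold for 36 of 30518 genes (0.118%), 16 with a higher (0.0524%) and 20 with a lower (0.0655%) change in a46, and DESeq2 gave 616 (2.02%). The 36 lay close to the threshold, with a smallest adjusted p of 0.0482, and 0 of them lay in the stretch of chromosome 7. Without 1 wildtype pool the count was 0, 0 and 19 for pools 1, 2 and 3 of batch 4, and 0, 0 and 1 for those of batch 2. Construct and batch cannot be told apart beyond the correction by each wildtype, and the a47 libraries were shallower, with 4.79 to 9.29 M counts.

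Values differed mainly on the a47 side in Potri.018G035100 and Potri.T059800. Potri.018G035100 had 0.411, 0.437 and 0.461 CPM in the a47 lines against 2.84, 1.8 and 2.27 CPM in their wildtype, while the a46 lines held 1.01 to 1.91 CPM against 0.809, 1.24 and 0.925. The difference between the changes was 2.90 log2 (SE 0.41, adjusted p = 0.0482 by edgeR). Potri.T059800 was higher in a47, at 22.7, 46.1 and 34.4 CPM against 9.6, 10.6 and 8.63, and alike in a46 and its wildtype, at 7.18 to 9.32 and 8.14 to 9.36 CPM. Its difference was -1.83 log2 (SE 0.25, adjusted p = 0.0482 by edgeR).

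Potri.004G085000 had values in opposite directions. It had 22.1, 17.1 and 17.1 CPM in a47 against 38.2, 26.2 and 31.1 CPM in wildtype of batch 2, and 21.7 to 33.3 CPM in a46 against 13.8, 14.5 and 17.0 CPM in wildtype of batch 4. By line sums the knockdown lines and their wildtype did not overlap in either batch, but single a46 pools, from 10.2 to 49.3 CPM, overlapped the wildtype pools. The lines of the other constructs of batch 4 held 21.1 ± 7.13 CPM (SD, n = 9 lines), from 7.61 to 30.8. Their range overlapped that of the a46 lines. The difference was 1.64 log2 (SE 0.24, adjusted p = 0.0482 by edgeR). Potri.006G129800 had 5.09, 5.46 and 4.36 CPM in a47 against 2.84, 2.36 and 2.27, and by line sums 6.76 to 8.59 CPM in a46 against 10.3, 10.3 and 10.2, a difference of -1.42 log2 (SE 0.18, adjusted p = 0.0482 by edgeR). Single a46 pools of this gene ran from 4.55 to 14.8 CPM, on both sides of the wildtype pools. The 9 lines of the other constructs of batch 4 ran from 5.02 to 14.4 CPM.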

How the data were processed

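Total RNA of stem-differentiating xylem was sequenced by the authors from TruSeq libraries on an Illumina GAIIx. Reads were mapped with Bowtie and TopHat to the P. trichocarpa genome v3.0, and BedTools gave raw counts per gene. A TMM step came later in the authors' work and is not part of these values. The deposited values are these whole-number counts for 41334 genes, 1 column per library, and 0 columns lay outside the labelled lines and wildtype pools. A column of the construct a12, whose pool number is not in the labels, was placed by its line only and not used. The table of gene names given for this organism (34621 genes, assembly P.trichocarpa_v4.1) held 0 of the identifiers, so gene names, the target, xylem markers, monolignol genes and sequences are not given here.

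Groups came from the labels, and totals per library were 13.4 to 93.5 M counts in the a46 and wildtype libraries. Depth limits calls most in genes near 1 CPM. Pools of a line were added up for the comparisons with wildtype, with other lines and with a47, which set line sums against single wildtype pools. Pools entered singly for the tests between lines and of each line. Tests used edgeR 4.0.16 in R 4.3.3 (filterByExpr, TMM, glmQLFit, glmQLFTest, Benjamini-Hochberg over all genes tested, threshold 0.05), and DESeq2 1.42.0 as an alternative. A standard error (SE) is the log2 difference divided by the root of F. The p-values measure the spread between these lines or pools, and the labels do not say that pools were grown separately.

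For chromosome 7, log2(CPM + 0.5) of genes that averaged 3 CPM or more was compared with the median of the other units of the batch in identifier order. The step minimized the summed absolute deviation from 1 median on each side. Scripts were tested on simulated data. Python 3.11.15, pandas 2.3.3, NumPy 2.4.6 and matplotlib 3.10.9 were used. The genes named are the 2 with the smallest p in each direction of a test, from genes past the threshold where there were any, and for a46 against wildtype from genes without overlap between lines and pools. Others were named after their values were seen. The members and lists were chosen with earlier results of these data known. Alternatives were other normalization, filters, tools, units, a replicate block, and each line, construct or wildtype pool left out.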

Additional observations from a re-analysis of the deposited data

Results flagged for a closer look

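Measures of the 6 a46 lines were screened for a line whose distance from its nearest neighbour took up most of the range of the 6 (Dixon's ratio above its critical value). Chance alone would set apart about 1 in 20 groups chosen without regard to their values, and 4 of the 16 measures had such a line. These 4 were the median of chromosome 7 and genes named from the test between lines. All were picked after the lines were seen to differ there, so their number cannot be set against that rate.

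The median log2 deviation of chromosome 7 was -0.54 in line a46-1, against -0.04 to 0.03 in the other 5 lines. By line sums, Potri.007G064500 in the same stretch had 0.212 CPM in a46-1, against 6.26 to 8.52 CPM. Potri.016G098800 had 9.06 CPM in a46-3, against 0.187 to 0.41 CPM. Potri.005G252300 had 20.5 CPM in a46-4, against 1.62 to 2.63 CPM.

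The change relative to wildtype differed between the MYB156 and MYB221 knockdowns in 36 genes by the test of the difference itself (edgeR), a count that fell to 0 without either of 2 wildtype pools of batch 4.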

How the results depend on the processing

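For a46 against wildtype, edgeR gave 0 genes under every alternative run, with single lines and wildtype pools left out included (0 to 0), and DESeq2 gave 781. Total counts without a composition factor moved the median of all genes by -0.10 log2, to -0.11. Against the other lines of the batch edgeR gave 0 under every alternative and DESeq2 368. Between lines the count was 5063 by DESeq2, and it ranged from 3 to 1013 with a line or a pool left out. For a46 against a47 it was 616 by DESeq2 and 0 to 19 with a wildtype pool left out. With a wildtype pool or pool 2 of a46-4 left out, the counts of single lines ranged from 217 to 333 for a46-1, 3 to 5 for a46-3, 1 to 4 for a46-4, 0 to 3 for a46-5, 0 to 1 for a46-8 and 0 to 26 for a46-10. The causes of these shifts were not tested. Leaving out pools heavy in the chromosome 5 run (1405 between lines) or pool 2 of a46-4 (272), and all alternatives for chromosome 7, were chosen after seeing the data.

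The stretch of a46-1 had a median of -0.84 log2 with a pseudocount of 2, which pulls low values together, -1.0001 with a minimum of 10 CPM, -0.94 against the other 5 a46 lines, and -0.99 to -0.95 with a pool left out. A window of 51 genes in place of 25 gave the same 436 genes.

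Whether pool numbers paired the libraries was not settled. The share of counts in the chromosome 5 run was highest in pool 1 of a46-3, a46-4, a46-5, a46-8 and wildtype, and in pool 3 of a46-1 and a46-10. Deviations from the line means correlated with a median of 0.08 over 57 pairs with the same pool number (-0.50 to 0.62) and -0.02 over 114 pairs with different numbers, and 8 of 20 libraries correlated best with their own number. With the replicate block the test between lines gave 235 genes, of which 197 were among the 454 and 117 in the stretch of chromosome 7, and a46 against wildtype gave 0, with 2066 at an unadjusted p under 0.05.

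Depth limits the low genes most: the wildtype levels of Potri.016G098800 rest on 24, 4 and 4 counts.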
